A study of Danio rerio with 8 samples.

Results

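DNA replication and mitosis genes were followed in blood cells of the zebrafish kidney, in double knockouts for miR-142-3p and in wild-type fish. The set holds 39 genes with known roles in copying and dividing chromosomes, from replication licensing to the spindle. It was chosen with earlier results of these data known, so counts over its members are descriptions. A gene counted as measured where a probe set of the array was annotated with that symbol alone. This held for 33 of the 39, on 34 probe sets, among 19260 genes named in the same way. For mcm5, mad2l1 and smc2 the annotated probe set carries several symbols, and for mcm2, mki67 and tpx2 no probe set is annotated, so these 6 were not analysed here. All 33 measured members lay above the level used to set aside dim genes, a mean log2 level of 5.52 over the 8 arrays, and so were among the 13774 genes tested.

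The 4 groups were 142ab-/- myelomonocytes, wild-type myelomonocytes, 142ab-/- WKMs and wild-type WKMs, each with 2 arrays. Per the labels, 142ab-/- fish are double knockouts for miR-142-3p, and each sample was sorted from 4 kidneys of fish at 60 days post fertilisation (dpf). Myelomonocytes are cells of the granulocyte and monocyte lineage, and WKMs are whole kidney marrow from which erythrocytes were left out. The sources used here give no alleles, background strain, sex or sort gates. The labels name no promoter or Cre that would restrict the knockout to blood cells. With 2 samples per group, p-values measure only the spread between these samples.

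The kidney is the organ in which adult zebrafish form blood, and its marrow holds dividing precursors beside mature cells that have left the cell cycle. Before S phase the MCM helicase is loaded onto replication origins by Cdc6 and Cdt1, and geminin keeps it from being loaded again. Cyclins paired with cyclin-dependent kinases drive the passage from G1 through S phase into mitosis. There condensin compacts the chromosomes, Aurora and Polo-like kinases build the spindle, and the checkpoint holds back the anaphase-promoting complex until every chromosome is attached. Transcripts of most of these genes are known to be abundant in dividing cells and scarce in resting ones, so the set is often read as a measure of proliferation. The roles given below are mostly known from human, mouse and yeast counterparts of the zebrafish genes.

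Across the genes tested, the 2 arrays of a group correlated at r = 0.988 to 0.992, and pairs from different groups at r = 0.907 to 0.974. Neutrophil markers followed the sort labels, with 9 of 10 higher in 142ab-/- myelomonocytes than in 142ab-/- WKMs and 7 of 10 higher in wild-type myelomonocytes than in wild-type WKMs. Lymphocyte markers were lower in myelomonocytes, 13 of 16 in 142ab-/- fish and 15 of 16 in wild-type fish. Over all genes tested, 22.6% and 20.1% were called lower, or 3109 and 2766 genes. In either direction 6076 and 4900 of the 13774 genes were called, the rest of them higher in myelomonocytes. Monocyte and macrophage markers were also mostly lower in myelomonocytes, although the sort is named for that lineage too. In 142ab-/- fish 7 of 10 were lower and 2 higher, and in wild-type fish 5 of 10 were lower and 2 higher. No named probe set stood for a miR-142 gene, so the knockout itself was not checked here. Among 142ab-/- WKMs the 2 arrays stood apart for the members. All 33 were lower on replicate 1 than on replicate 2, by a median of 0.32 on the log2 scale, whereas across all genes tested the median gap was 0.01. The members' medians that rest on this group, and the largest single differences, are therefore also given without each of its arrays.

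**Figure D1:**
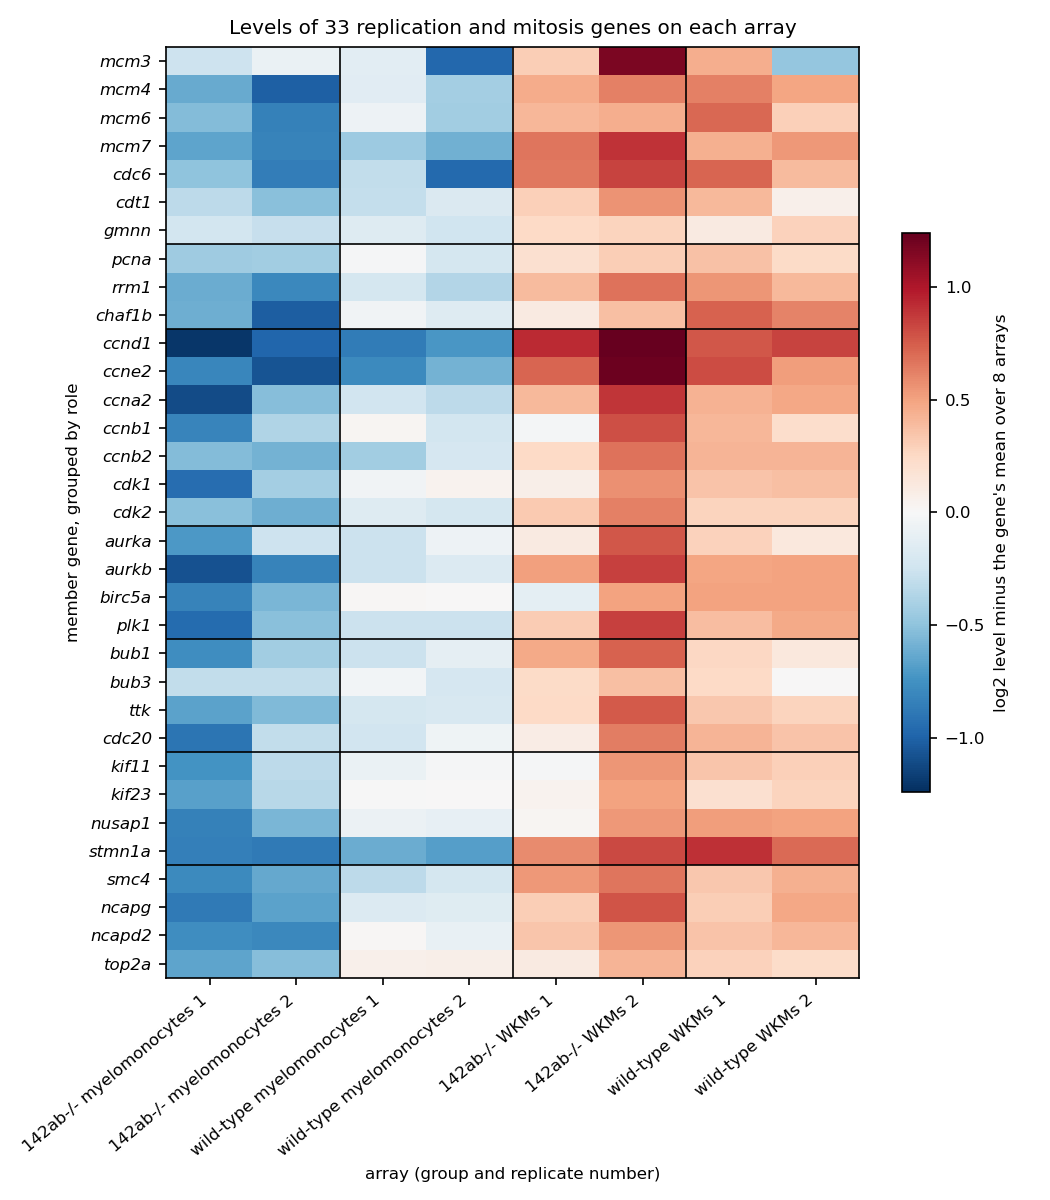
Heat map of the log2 level of each of the 33 measured members on each of the 8 arrays, as the difference from the gene's own mean over the 8 arrays. Columns are arrays, with the 4 groups divided by vertical lines, and rows are genes, with roles divided by horizontal lines. Levels were below each gene's mean on both arrays of 142ab-/- myelomonocytes for all 33 members.

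The members were first compared between genotypes within the sorted myeloid cells. In 142ab-/- myelomonocytes, 7 of 33 members fell, 0 rose and 26 were not called. The 7 were the condensin genes ncapd2, ncapg and smc4, the topoisomerase gene top2a, the Aurora kinase gene aurkb, the survivin gene birc5a and the chromatin assembly gene chaf1b. Calls were made with limma at a Benjamini-Hochberg adjusted p below 0.05 over the genes tested. That is 21.2% of the members, beside 5.51% of all genes tested called lower and 6.85% called higher. At an unadjusted p under 0.05 there were 20 members, beside 27.3% of all genes tested. The differences of the 7 ran from -0.74 to -0.44 on the log2 scale. Over all 33 the median was -0.44, beside 0.01 over all genes tested, and 32 of 33 lay below 0, beside 48.7% of all genes tested. Both 142ab-/- arrays lay below both wild-type arrays for 29 of 33 members, beside 26.6% of all genes tested. The members with overlapping arrays were mcm3, cdc6, gmnn and aurka. In bulk samples such as these, fewer dividing cells and less RNA per cell cannot be told apart.

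The number called rested on single arrays, falling without some and rising without either array of 142ab-/- WKMs. Without replicate 1 or 2 of wild-type myelomonocytes it was 1 each time, and that gene was ncapd2. That is 3.03% of the members, beside 1.97% and 2.14% of all genes tested called lower in those fits. It was 3 without replicate 1 of 142ab-/- myelomonocytes, or 9.09% beside 4.74%. It was 4 without replicate 1 or 2 of wild-type WKMs, which enter only through the shared variance, or 12.1% beside 4.39%. Setting aside no dim genes left 4 calls, beside 3.28% of all genes, and letting the prior variance follow the level gave 12, or 36.4% beside 6.73%. The median stayed between -0.50 and -0.32 with any 1 array left out.

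Condensin is the ring complex that compacts chromosomes before they separate, and topoisomerase II alpha untangles the DNA strands as it does so. All 4 measured members of this role fell, beside 5.51% of all genes tested called lower. ncapd2, a condensin I regulatory subunit, had log2 levels of 7.46 and 7.43 in 142ab-/- myelomonocytes, against 8.24 and 8.13 in wild-type myelomonocytes. The groups were well apart and the arrays of each lay within 0.11 of each other, with a difference of -0.74 ± 0.10 (SE) and an adjusted p = 0.00429 in limma, or 1.67-fold lower in the knockout. ncapg, another condensin I subunit, had 8.44 and 8.66 in 142ab-/- myelomonocytes, against 9.15 and 9.17 in wild-type myelomonocytes, a difference of -0.61 ± 0.16 (limma, adjusted p = 0.0467). smc4, an ATPase of the condensin core, had 8.20 and 8.36 in 142ab-/- myelomonocytes, against 8.66 and 8.77 in wild-type myelomonocytes, a difference of -0.44 ± 0.11 (limma, adjusted p = 0.0341). For both genes every knockout array was below every wild-type array, as for 26.6% of all genes tested. top2a had 7.95 and 8.08 in 142ab-/- myelomonocytes, against 8.66 and 8.67 in wild-type myelomonocytes, a difference of -0.65 ± 0.12 (limma, adjusted p = 0.0125).

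Among mitotic kinases and survivin, 2 of 4 members fell, beside 5.51% of all genes tested called lower. aurkb, the kinase of the chromosomal passenger complex that corrects faulty spindle attachments, had 8.03 and 8.27 in 142ab-/- myelomonocytes, against 8.84 and 8.93 in wild-type myelomonocytes, a difference of -0.74 ± 0.14 (limma, adjusted p = 0.0133). birc5a, a survivin gene whose product brings that kinase to the centromere, had 7.56 and 7.82 in 142ab-/- myelomonocytes, against 8.41 and 8.40 in wild-type myelomonocytes, a difference of -0.71 ± 0.19 (limma, adjusted p = 0.0473). These partners of one complex thus lay lower on both knockout arrays, with the survivin gene close to the threshold. plk1, the Polo-like kinase of spindle and cytokinesis, had 7.84 and 8.27 in 142ab-/- myelomonocytes, against 8.53 and 8.52 in wild-type myelomonocytes, and its difference of -0.47 ± 0.19 was not called (limma, adjusted p = 0.163). aurka, the kinase of centrosomes and spindle poles, was not called either, at -0.33 ± 0.23, and its groups overlapped. The knockout arrays had 7.50 and 7.96, against 7.95 and 8.16 in wild-type myelomonocytes.

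Of 3 members in DNA synthesis and chromatin assembly, chaf1b fell, beside 5.51% of all genes tested called lower. It encodes a subunit of the chromatin assembly factor that places histones behind the replication fork, and it had 7.09 and 6.67 in 142ab-/- myelomonocytes, against 7.66 and 7.54 in wild-type myelomonocytes. The difference was -0.71 ± 0.16 (limma, adjusted p = 0.0240). rrm1, the large subunit of ribonucleotide reductase, which makes deoxynucleotides, had 9.83 and 9.65 in 142ab-/- myelomonocytes, against 10.23 and 10.09 in wild-type myelomonocytes, and pcna, the sliding clamp of DNA polymerases, had 11.31 and 11.32 in 142ab-/- myelomonocytes, against 11.74 and 11.54 in wild-type myelomonocytes. Both had every knockout array below every wild-type array, as did 26.6% of all genes tested. Neither was called, at -0.42 ± 0.13 and -0.32 ± 0.11 (limma, adjusted p = 0.0758 and 0.0955).

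None of the 7 measured cyclin and cyclin-dependent kinase genes was called by limma in myelomonocytes. At an unadjusted p under 0.05 in limma there were 3, beside 27.3% of all genes tested. In all 7 both knockout arrays nevertheless lay below both wild-type arrays, beside 26.6% of all genes tested. cdk1, the kinase that starts mitosis, was furthest from 0, with 8.23 and 8.75 in 142ab-/- myelomonocytes, against 9.13 and 9.22 in wild-type myelomonocytes, a difference of -0.68 ± 0.20 (limma, adjusted p = 0.0640). Its mitotic partners ccnb1 and ccnb2, which encode B-type cyclins, differed by -0.49 and -0.24, and ccna2, the cyclin of S phase and G2, by -0.54. cdk2, the kinase of S phase entry, differed by -0.37, its partner ccne2, a cyclin E gene, by -0.25, and ccnd1, the growth-factor-responsive cyclin D1 of G1, by -0.30. ccnd1 had a second, dimmer probe set at 4.17 and 4.69 in 142ab-/- myelomonocytes, against 4.50 and 4.39 in wild-type myelomonocytes, where the groups overlapped below the level used for dim genes.

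Licensing and helicase genes had the median nearest to 0 of the 7 roles, with 0 of 7 called by limma. In limma 2 of 7 had an unadjusted p under 0.05, near the 27.3% of all genes tested. The role's median was -0.19, and 4 of 7 had both knockout arrays below both wild-type arrays, beside 26.6% of all genes tested. The helicase subunit gene mcm4 had 7.80 and 7.41 in 142ab-/- myelomonocytes, against 8.28 and 8.01 in wild-type myelomonocytes, a difference of -0.54 ± 0.16 (limma, adjusted p = 0.0620). mcm6 and mcm7, which encode further subunits, differed by -0.44 and -0.22. cdt1, a loader of the helicase, differed by -0.19. cdc6, the other loader, had 7.16 and 6.80 in 142ab-/- myelomonocytes, against 7.35 and 6.69 in wild-type myelomonocytes, so that the groups overlapped (95% interval of the difference -0.56 to 0.48). gmnn, which encodes geminin, the inhibitor of Cdt1, differed by -0.05. mcm3 was the only member above 0, at 0.38 ± 0.39, and its wild-type arrays disagreed. The knockout arrays had 6.49 and 6.67, against 6.61 and 5.77 in wild-type myelomonocytes, and without replicate 2 of the wild type the difference was -0.04. The direction of cdc6 also rested on single arrays, being 0.29 without replicate 1 of wild-type myelomonocytes and 0.14 without replicate 2 of 142ab-/- myelomonocytes.

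Spindle and checkpoint genes were not called in limma, 0 of 8 in all. An unadjusted p under 0.05 in limma was found for 5, beside 27.3% of all genes tested. All 8 had both knockout arrays below both wild-type arrays, beside 26.6% of all genes tested. nusap1, a microtubule-bundling spindle protein, was nearest to the threshold, with 9.28 and 9.55 in 142ab-/- myelomonocytes, against 10.04 and 10.01 in wild-type myelomonocytes, a difference of -0.61 ± 0.17 (limma, adjusted p = 0.0521). The motor genes kif23, of the central spindle, and kif11, which pushes the poles apart, differed by -0.51 and -0.48. stmn1a, which encodes a microtubule-destabilising stathmin, differed by -0.21. In the checkpoint, the kinase genes bub1 and ttk differed by -0.41 and -0.40, bub3, which holds Bub1 at the kinetochore, by -0.19, and cdc20, the activator of the anaphase-promoting complex, by -0.46.

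**Figure D2:**
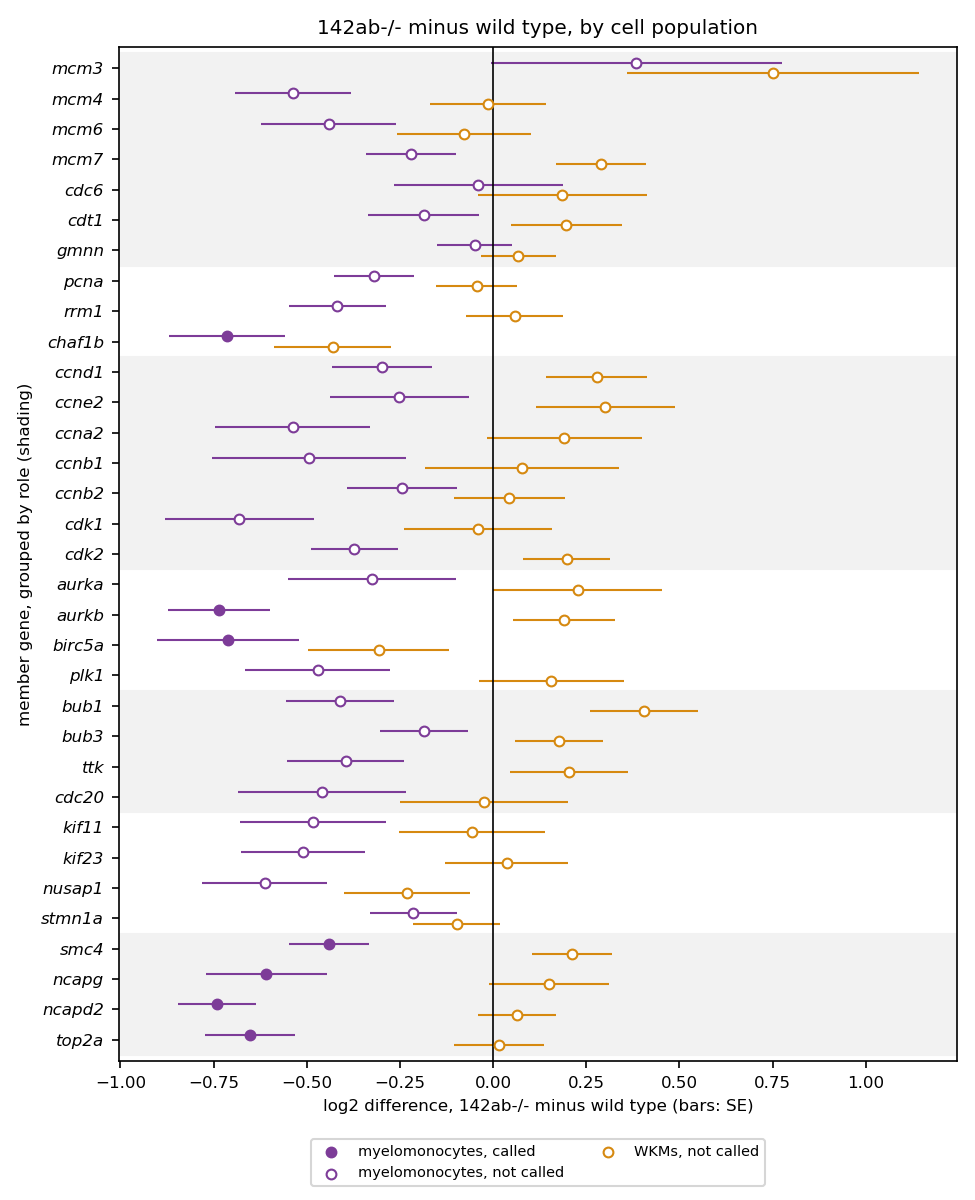
Log2 difference between 142ab-/- and wild type for each of the 33 members, with bars for the SE of the fit (2 arrays per group), in myelomonocytes and in WKMs. Filled points were called at an adjusted p under 0.05 and open points were not. In myelomonocytes 32 of 33 lie left of 0 and 7 are filled, while in WKMs the points lie on both sides of 0 and none is filled.

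The same question was put to the whole kidney marrow. In 142ab-/- WKMs limma called 0 of 33 members, beside 9.28% of all genes tested called in either direction, and 3 members had an unadjusted p under 0.05, beside 24.7%. Differences ran from -0.43 to 0.75 with a median of 0.08, beside 0.01 over all genes tested, and 23 lay above 0 and 10 below, where 49.1% of all genes tested lay below. The arrays of the genotypes overlapped for 26 members. Both knockout arrays lay above both wild-type arrays for 6 members, beside 28.1% of all genes tested, and below them for 1 member, beside 28.5%. The balance depended on which knockout array was used. Without replicate 1 of 142ab-/- WKMs the median was 0.26, with 31 members above 0. Without replicate 2 it was -0.09, with 12 above 0. The number called was 0 in both cases.

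The genes called in myelomonocytes were spread around 0 in WKMs. ncapd2 had log2 levels of 8.57 and 8.77 in 142ab-/- WKMs, against 8.58 and 8.63 in wild-type WKMs, a difference of 0.06 ± 0.10 with a 95% interval of -0.18 to 0.30. top2a had 8.72 and 9.02 in 142ab-/- WKMs, against 8.88 and 8.83 in wild-type WKMs, with an interval of -0.26 to 0.29, and aurkb had 9.62 and 9.95 in 142ab-/- WKMs, against 9.59 and 9.60 in wild-type WKMs, with an interval of -0.13 to 0.51. In each of these genes the knockout arrays lay further apart than the wild-type arrays. chaf1b lay below 0, with 7.80 and 8.07 in 142ab-/- WKMs, against 8.43 and 8.31 in wild-type WKMs, so that both knockout arrays were lower, at -0.43 ± 0.16 (limma, adjusted p = 0.134). birc5a had 8.26 and 8.89 in 142ab-/- WKMs, against 8.89 and 8.88 in wild-type WKMs, a difference of -0.31 ± 0.19 with overlapping groups, since replicate 2 of the knockout was as high as the wild type. bub1 had the smallest adjusted p of the members, 0.131 in limma, with 8.54 and 8.80 in 142ab-/- WKMs, against 8.33 and 8.20 in wild-type WKMs, a difference of 0.40 ± 0.15. mcm3 had the difference furthest above 0, 0.75 ± 0.39, and its arrays were far apart within both groups, at 7.05 and 7.91 in 142ab-/- WKMs, against 7.19 and 6.26 in wild-type WKMs.

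Whether the genotype difference itself differed between the populations was tested as the difference of the 2 differences, myelomonocytes minus WKMs. limma called 0 of 33 members, beside 0.276% of all genes tested, and 14 members had an unadjusted p under 0.05, beside 14.0% of all genes tested. All 33 values lay below 0, with a median of -0.52 beside 0.03 over all genes tested, where 45.6% of genes lay below 0. The smallest adjusted p-values were those of ncapd2, at -0.80 ± 0.15 (limma, adjusted p = 0.0908), and aurkb, at -0.93 ± 0.19 (adjusted p = 0.117). smc4, bub1, top2a, cdk2 and ncapg followed, from -0.82 for bub1 to -0.57 for cdk2, with adjusted p-values up to 0.209 in limma. The median was -0.72 without replicate 1 of 142ab-/- WKMs and -0.32 without replicate 2, with 33 and 31 members below 0. For no single member was the genotype difference shown to differ between the populations.

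Between the cell populations, most members were lower in myelomonocytes. In 142ab-/- fish, 32 of 33 members were called lower in myelomonocytes than in WKMs, beside 22.6% of all genes tested, and 1, mcm3, was not called. Differences ran from -2.17 to -0.51 with a median of -1.05, beside 0.03 over all genes tested, and 20 members were at least 2-fold lower, beside 7.39% of all genes tested. All 33 had both myelomonocyte arrays below both WKM arrays, beside 35.2% of all genes tested. Without replicate 1 of 142ab-/- WKMs the median was -1.33, and without replicate 2 it was -0.88. In wild-type fish 22 of 33 were called lower and 11 were not called, beside 20.1% of all genes tested called lower. The median was -0.54, 5 members were at least 2-fold lower, beside 4.97% of all genes tested, and 32 of 33 had both myelomonocyte arrays below both WKM arrays, beside 37.1%. The wild-type count was 11 without replicate 2 of wild-type myelomonocytes, and 12 or 14 without replicate 1 or 2 of wild-type WKMs. These are 33.3%, 36.4% and 42.4% of the members, beside 12.3%, 12.7% and 13.7% of all genes tested called lower.

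**Figure D3:**
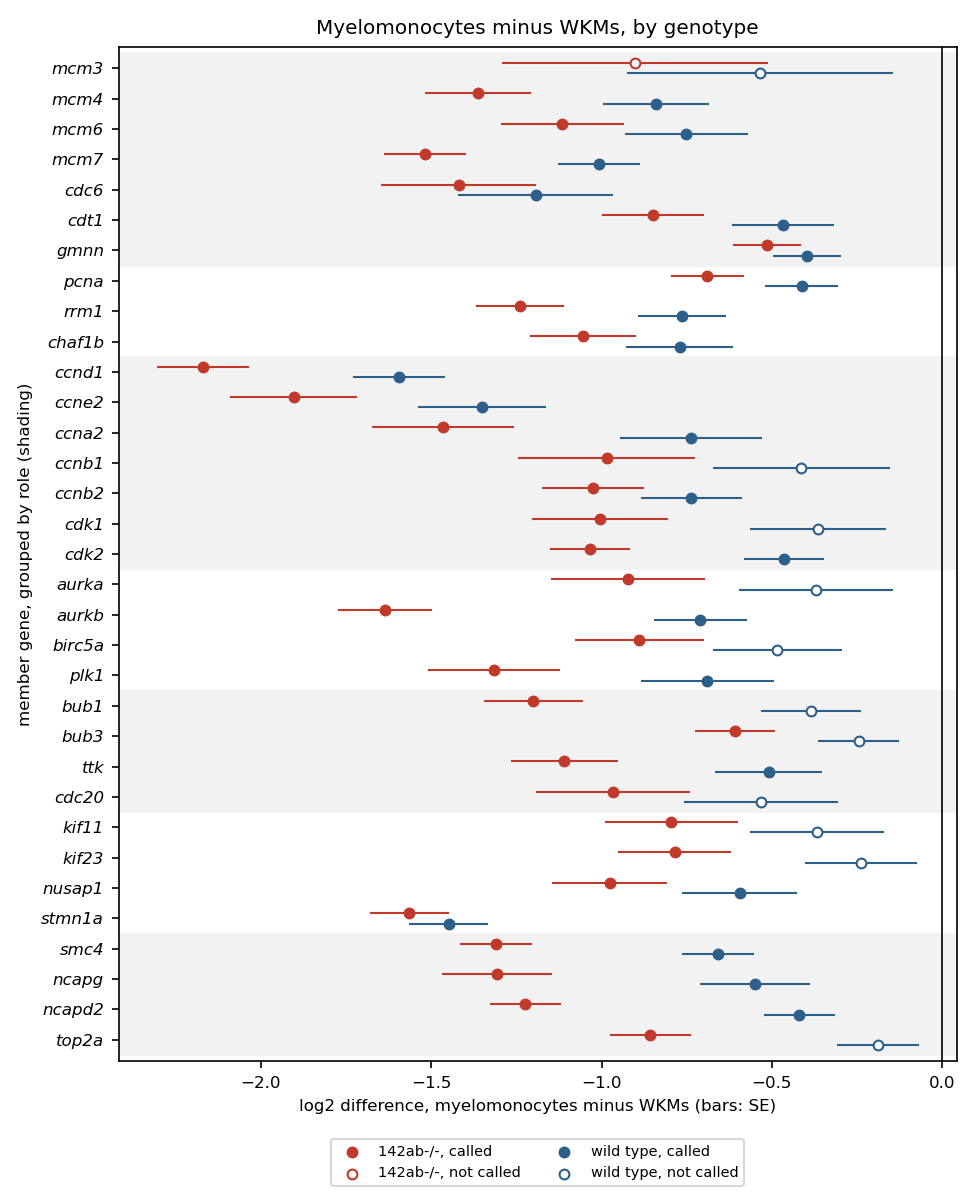
Log2 difference between myelomonocytes and WKMs for each of the 33 members, with bars for the SE of the fit (2 arrays per group), in 142ab-/- and in wild-type fish. Filled points were called at an adjusted p under 0.05. All points lie left of 0, with 32 filled in 142ab-/- fish and 22 in wild-type fish.

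The cyclins of G1 and of S phase entry had the differences furthest from 0 in 142ab-/- fish. ccnd1 had log2 levels of 8.82 and 9.04 in 142ab-/- myelomonocytes, against 10.95 and 11.26 in 142ab-/- WKMs, a difference of -2.17 ± 0.14, or 4.50-fold lower (limma, adjusted p = 4.59e-05). In wild-type fish it had 9.16 and 9.31 in wild-type myelomonocytes, against 10.79 and 10.86 in wild-type WKMs, a difference of -1.59 ± 0.14, or 3.02-fold lower (limma, adjusted p = 0.000183). The populations were thus far apart in both genotypes. ccne2 had 6.57 and 6.31 in 142ab-/- myelomonocytes, against 8.10 and 8.59 in 142ab-/- WKMs, a difference of -1.90 ± 0.19, and in wild-type fish 6.59 and 6.80 in wild-type myelomonocytes, against 8.19 and 7.89 in wild-type WKMs, a difference of -1.35 ± 0.19. stmn1a differed by -1.56 ± 0.12 in 142ab-/- fish and by -1.45 ± 0.12 in wild-type fish, called in both. Without replicate 1 or 2 of 142ab-/- WKMs the difference in 142ab-/- fish was -2.33 or -2.01 for ccnd1 and -2.15 or -1.66 for ccne2, and both stayed called. The second ccnd1 probe set also lay lower in myelomonocytes, at 4.17 and 4.69 in 142ab-/- myelomonocytes, against 5.01 and 5.55 in 142ab-/- WKMs.

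Among mitotic genes, some were called in one genotype only. aurkb had 8.03 and 8.27 in 142ab-/- myelomonocytes, against 9.62 and 9.95 in 142ab-/- WKMs, a difference of -1.64 ± 0.14, against -0.71 ± 0.14 in wild-type fish, both called. top2a had 7.95 and 8.08 in 142ab-/- myelomonocytes, against 8.72 and 9.02 in 142ab-/- WKMs, a difference of -0.86 ± 0.12 (limma, adjusted p = 0.000927). Without replicate 1 or 2 of 142ab-/- WKMs the difference was -1.80 or -1.47 for aurkb and -1.01 or -0.70 for top2a, called each time. In wild-type fish top2a had 8.66 and 8.67 in wild-type myelomonocytes, against 8.88 and 8.83 in wild-type WKMs, and the difference of -0.19 ± 0.12 was not called (limma, adjusted p = 0.248). cdk1, kif11, kif23, aurka, ccnb1, cdc20, birc5a, bub1 and bub3 were likewise called in 142ab-/- fish and not in wild-type fish, where they differed by -0.53 to -0.24. The test of the difference between genotypes, which for these contrasts is the difference of differences given above, was not passed by any of them. The 9 licensing, helicase, synthesis and assembly genes other than mcm3 were called lower in both genotypes. mcm7 differed by -1.52 ± 0.12 in 142ab-/- fish and -1.01 ± 0.12 in wild-type fish, cdc6 by -1.42 ± 0.23 and -1.19 ± 0.23, and rrm1 by -1.24 ± 0.13 and -0.76 ± 0.13. Across the 33 members the differences in the 2 genotypes, which share no arrays, correlated at r = 0.846, beside 0.840 over all genes tested. This is a description across genes, which are not independent replicates.

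The gap between the arrays of a group varied with the members' role. In 142ab-/- myelomonocytes, 6 of 7 licensing and helicase genes were higher on replicate 1, by a median of 0.19, while all 8 mitotic kinase, survivin and checkpoint genes were lower there, mitotic kinases and survivin by a median of 0.35. cdc20, for example, had 6.62 and 7.23 and ccna2 7.44 and 8.02 on the 2 knockout arrays, whereas mcm4 had 7.80 and 7.41. Over all genes tested, 62.5% were higher on replicate 1, by a median of 0.06. In wild-type myelomonocytes the licensing genes had the largest median gap of the roles, 0.28, with gaps of up to 0.84, the last for mcm3. In 142ab-/- WKMs all roles moved the same way, from a median gap of -0.18 for licensing genes to -0.58 for mitotic kinases and survivin. The sources used here give no batch, scan date or cell count to set beside these gaps.

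**Figure D4:**
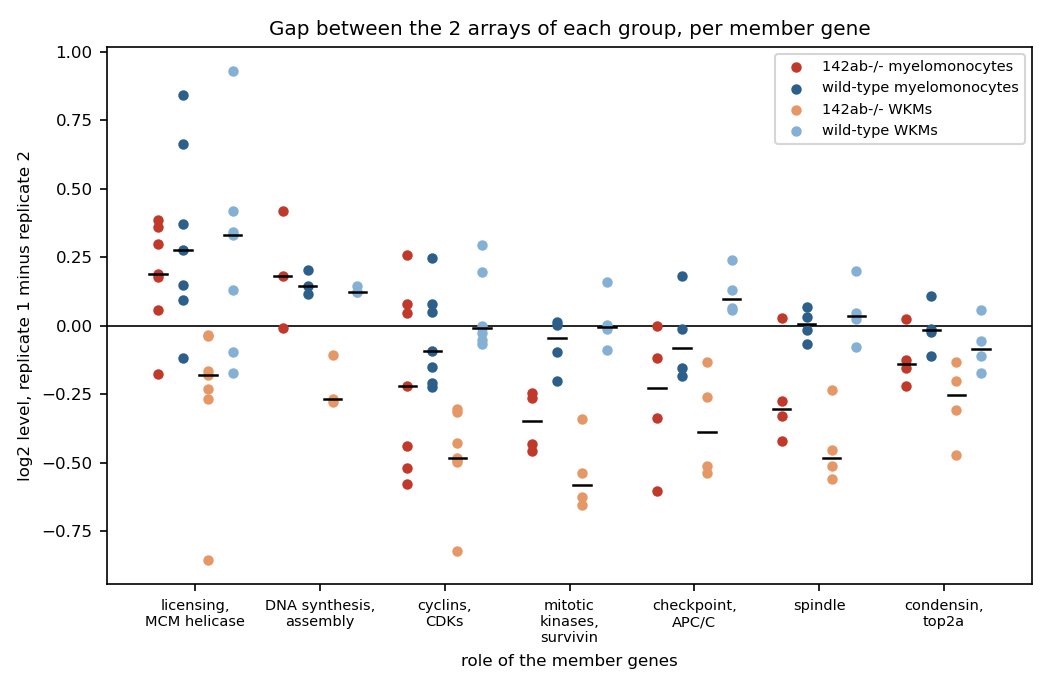
Gap between the 2 arrays of each group, as log2 level on replicate 1 minus replicate 2, for each member by role, with the median as a bar. In 142ab-/- WKMs all 33 points lie below 0, and in 142ab-/- myelomonocytes licensing genes lie mostly above 0 and mitotic kinases and survivin below it.

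Other genes of the same pathways, from lists of 42 replication, 47 mitosis and 36 regulator genes, were counted beside the members. In 142ab-/- myelomonocytes 5 of 38 tested replication genes fell and 0 rose, with a median of -0.23. That is 13.2% lower, beside 5.51% of all genes tested. cdc7, the kinase that fires origins, differed by -0.55 ± 0.10, rpa1, a single-strand binding protein, by -0.49 ± 0.11, orc5, an origin recognition subunit, by -0.81 ± 0.19 and cdc45, a partner of the MCM helicase, by -0.58 ± 0.14 (limma, adjusted p = 0.0138 to 0.0318). Of 39 mitosis genes 9, or 23.1%, fell and 0 rose, with a median of -0.42. They included kif18a, a motor that trims spindle microtubules, at -0.64 ± 0.11, nuf2, of the outer kinetochore, at -0.68 ± 0.13, the kinase gene melk at -0.75 ± 0.16 and prc1b, a bundler of the central spindle, at -0.90 ± 0.20. Of 31 regulators 3, or 9.68%, fell and 0 rose, with a median of -0.22. These were tfdp2, a partner of E2F proteins, at -0.65 ± 0.14, and the E2F genes e2f8, a repressor, at -0.51 ± 0.13 and e2f2, an activator, at -0.69 ± 0.18. Of the genes named from these lists, 11 in all, none was called without replicate 1 of wild-type myelomonocytes and 1 without replicate 2, while 3 and 5 were called without replicate 1 or 2 of 142ab-/- myelomonocytes.

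In 142ab-/- WKMs none of the 38 replication and 39 mitosis genes was called by limma, with medians of 0.14 and 0.09. At an unadjusted p under 0.05 in limma there were 7 and 2, beside 24.7% of all genes tested. Of the regulators 1 rose, e2f7, an E2F repressor, with 7.64 and 8.17 in 142ab-/- WKMs, against 7.22 and 7.29 in wild-type WKMs, a difference of 0.65 ± 0.16 (limma, adjusted p = 0.0464). With 1 array left out that call remained in 1 of 8 cases, without replicate 1 of 142ab-/- WKMs. Between populations, 34 of 38 replication genes and 34 of 39 mitosis genes were lower in 142ab-/- myelomonocytes than in 142ab-/- WKMs. The medians were -0.92 and -0.99, and 22.6% of all genes tested were called lower. In wild-type fish it was 20 of 38 and 20 of 39, beside 20.1% of all genes tested, with medians of -0.51 and -0.49. A single mitosis gene, cdc25d, of the CDC25 phosphatase family that activates cyclin-dependent kinases, was higher in myelomonocytes, at 0.56 ± 0.12 in 142ab-/- fish and 0.44 ± 0.12 in wild-type fish. Its log2 levels in WKMs, 5.76 and 5.44 in 142ab-/- WKMs and 5.49 and 5.40 in wild-type WKMs, lay around the level used for dim genes, so the size of these differences is uncertain. The wild-type call was lost without any 1 wild-type array, with an adjusted p of up to 0.111 in limma. It was chosen after its values were seen.

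Markers of some other cell types, but not of all, moved with the members. Of 20 erythroid genes tested, 11 fell in 142ab-/- myelomonocytes, beside 5.51% of all genes tested called lower, and 9 were not called. Their median was -0.62, and none of the 20 was dim. The log2 of their summed level was 14.48 and 14.55 in 142ab-/- myelomonocytes, against 15.04 and 15.24 in wild-type myelomonocytes. It was 15.92 and 16.10 in 142ab-/- WKMs, against 15.75 and 15.90 in wild-type WKMs. This summed level, like the members' mean, was lowest in 142ab-/- myelomonocytes, higher in wild-type myelomonocytes and highest in WKMs. Summed levels of thrombocyte and of monocyte and macrophage markers, given below for myelomonocytes, had the same order. In WKMs of both genotypes these were 12.20 to 12.51 and 14.39 to 14.52. The thrombocyte list is not separate from the erythroid one. Its brightest genes on replicate 1 of wild-type myelomonocytes were nfe2, which is in both lists, at 10.23, and gfi1b at 10.10. By itself nfe2 lacked the order, with 9.60 and 9.76 in 142ab-/- WKMs, against 10.23 and 10.09 in wild-type myelomonocytes. With 1 array left out the number of erythroid genes that fell was 4 to 12, the lowest without replicate 2 of wild-type myelomonocytes. WKMs thus held red cell transcripts although their labels leave erythrocytes out. Red cell precursors are known to divide in the marrow. slc4a1a, the red cell anion exchanger, had 11.25 and 11.18 in 142ab-/- myelomonocytes, against 11.99 and 12.14 in wild-type myelomonocytes, a difference of -0.85 ± 0.10, and tal1, a transcription factor of early red cells, differed by -0.97 ± 0.14. The part of erythroid cells in the members' differences was not tested.

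Of the other marker lists in 142ab-/- myelomonocytes, limma called 0 of 10 neutrophil genes, with 1 at an unadjusted p under 0.05 and a median of 0.07. Their log2 summed level was 15.84 and 15.85 in 142ab-/- myelomonocytes, against 15.78 and 15.80 in wild-type myelomonocytes. Of 10 monocyte and macrophage genes 2 fell, and the summed level was 13.59 and 13.85 in 142ab-/- myelomonocytes, against 13.90 and 13.92 in wild-type myelomonocytes. Of 6 thrombocyte genes 2 fell, 1 of which, nfe2, is also in the erythroid list, and the summed level was 10.74 and 10.90 in 142ab-/- myelomonocytes, against 11.42 and 11.62 in wild-type myelomonocytes. Of 10 stem and progenitor genes 2 rose and 2 fell, and mecom and kitb were dim. Of 16 lymphocyte genes 1, lck, rose, and cd8a was dim. Genes of the kidney tubule list, which also holds the podocyte genes nphs1 and wt1b, mostly went the other way. In the knockout 11 of 15 lay above 0 and 4 below. The number called higher was 6, beside 6.85% of all genes tested. That number was 1 to 7 with 1 array left out, being 1 without replicate 1 of wild-type myelomonocytes or replicate 2 of 142ab-/- myelomonocytes. Their summed level was 12.88 and 13.14 in 142ab-/- myelomonocytes, against 12.56 and 12.90 in wild-type myelomonocytes. Between populations 12 of 15 were higher in 142ab-/- myelomonocytes than in 142ab-/- WKMs. In wild-type fish 2 of 15 were higher in myelomonocytes than in WKMs. Of the 13774 genes tested, 6076 were called in either direction in 142ab-/- fish, 3109 of them lower. In wild-type fish 4900 were called, 2766 of them lower. The part of any of the cell types named here in the members' differences was not tested.

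In 142ab-/- WKMs no member was called, and 4.55% of all genes tested were called lower. The erythroid and kidney lists were near that share, with 1 of 20 and 1 of 15 marker genes lower. Of the other lists 4 of 16 lymphocyte, 2 of 10 monocyte and macrophage, 1 of 10 stem and progenitor and 1 of 6 thrombocyte genes fell. The erythroid and the thrombocyte gene are the same one, nfe2. None of these lists held a gene that rose, and limma called 0 of 10 neutrophil genes, with 2 at an unadjusted p under 0.05. The lymphocyte genes that fell were the T cell genes foxp3a, zap70 and cd4-1, at -1.50 ± 0.13, -0.69 ± 0.10 and -1.07 ± 0.11, and the recombinase gene rag2 at -1.61 ± 0.17, named here after their values were seen. foxp3a lay at the level used for dim genes in 142ab-/- WKMs, so that the size of its difference is uncertain. The calls of foxp3a, cd4-1 and rag2 were kept with any 1 array left out. That of zap70 was lost without replicate 2 of wild-type WKMs or of 142ab-/- WKMs (limma, adjusted p = 0.0556 and 0.0571). Their part in the members' values was not tested.

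**Figure D5:**
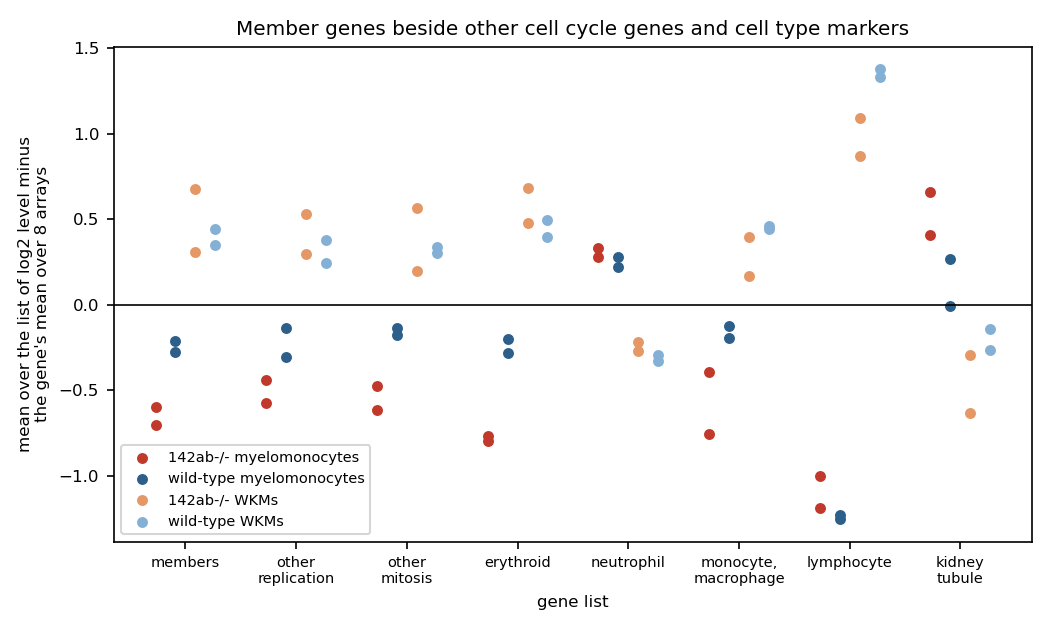
Mean over each list of the log2 level minus the gene's own mean over the 8 arrays, with 1 point per array. The list means of members and of other replication and mitosis genes are lowest in 142ab-/- myelomonocytes and highest in WKMs. Those of erythroid and of monocyte and macrophage markers have the same order, whereas neutrophil markers are higher in myelomonocytes of both genotypes.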

How the data were processed

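The deposited values of 75212 probe sets on each array were read as log2 levels from their range. Each 1-colour Affymetrix array was hybridised with biotin-labelled cRNA from 200 ng of total RNA, per the labels' protocols. The sources used here do not give the background correction, probe summary or normalization, and no value column was left unmapped. Probe sets were named from the platform annotation, updated through Entrez IDs in RefSeq's table of GRCz12tu (1 symbol changed). The brightest probe set per symbol was kept, and genes whose mean reached 5.52, the 50th percentile of the probe-set means, were tested. limma 3.58.1 in R 4.3.3 was fitted to all 8 arrays with 1 mean per group (4 residual and 4.00 prior degrees of freedom), two-sided, without a replicate block. Errors of differences are SEs of that fit. The labels call the 2 samples of a group biological replicates, and their number limits precision. Tests were tried on simulated data first. All members are accounted for, and up to 4 genes per other list and comparison, by smallest p, could be named, and genes named outside this rule are said to have been chosen after their values were seen. Members and lists were chosen with earlier results of these data known, so counts over them are descriptions. Sequences were not used here.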

Additional observations from a re-analysis of the deposited data

Results flagged for a closer look

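For 2 marker genes the genotype difference differed between the populations by the test of the difference itself, and no member of the set passed that test. sptb, a spectrin of the red cell membrane skeleton, had 8.11 and 8.16 in 142ab-/- myelomonocytes, against 9.20 and 9.30 in wild-type myelomonocytes, and 10.14 and 10.44 in 142ab-/- WKMs, against 9.98 and 10.18 in wild-type WKMs. Its difference of differences, myelomonocytes minus WKMs, was -1.33 ± 0.18 (SE, limma, adjusted p = 0.0382). foxp3a, the transcription factor gene of regulatory T cells, had 5.64 and 5.85 in 142ab-/- myelomonocytes, against 5.82 and 5.61 in wild-type myelomonocytes, and 5.57 and 5.50 in 142ab-/- WKMs, against 7.14 and 6.93 in wild-type WKMs, with a difference of differences of 1.53 ± 0.18 (limma, adjusted p = 0.0268). The first of these calls was lost with any 1 array left out (-1.48 to -1.18, adjusted p up to 0.163) and that of foxp3a with any 1 of 7 of the 8 arrays left out (1.42 to 1.64, adjusted p up to 0.119). foxp3a lay near 5.52, the level used for dim genes, in both myelomonocyte groups and in 142ab-/- WKMs. Its mean was 5.75 in 142ab-/- and 5.71 in wild-type myelomonocytes, so its value mostly restates the difference in WKMs. Whether such low levels hide a genotype difference in myelomonocytes was not tested. With 2 arrays per group no array was tested for standing apart from its group.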

How the results depend on the processing

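The members' counts and medians, the counts of each gene list and the differences of named genes were recomputed under 17 alternatives, 16 for the difference of differences. The number of members called lower in 142ab-/- than in wild-type myelomonocytes, 7, was 4 with no filter on dim genes, 12 when the prior variance followed the level, and 1 to 10 with 1 array left out, and no member was called higher under any of these. The cause was not tested. No member was called in WKMs between genotypes, or in the difference of differences, under any alternative. The number lower in myelomonocytes than WKMs was 28 to 33 in 142ab-/- fish, and 11 to 27 in wild-type fish, with 11 to 24 when 1 array was left out. With 1 array left out, the members' median ranged from -0.086 to 0.26 between genotypes in WKMs, from -0.72 to -0.32 for the difference of differences and from -1.33 to -0.88 between populations in 142ab-/- fish. Replicate numbers 1 and 2 are shared by the groups, but deviations of same-numbered arrays correlated between -0.000189 and 0.405 over 6 pairs of groups, above 0.1 in 3, which include both pairs that share a genotype. The labels do not pair the numbers and not every pair was above 0.1, so they were not used as pairs. Groups of different genotypes cannot share fish, so their low values do not bear on sharing within a genotype. There the correlations were 0.267 in 142ab-/- and 0.405 in wild-type fish, and whether the fish were shared was not tested. With the number as a replicate block, 11 members were called lower in 142ab-/- than in wild-type myelomonocytes. That is 33.3% of the members, beside 6.75% of all genes tested. With that block 32 members were called lower in myelomonocytes than in WKMs in 142ab-/- fish, beside 23.6% of all genes tested. In wild-type fish it was 24 members, beside 21.5%. The block is 1 shift shared by all 4 groups. It therefore does not model a pairing of the populations within a genotype, and no such fit was run. With 1 array left out, the direction reversed for 3 uncalled members between genotypes in myelomonocytes or in the difference of differences. Between genotypes in myelomonocytes mcm3 ranged from -0.037 to 0.81 and cdc6 from -0.37 to 0.29, and cdc6 was 0.14 without replicate 2 of 142ab-/- myelomonocytes. For the difference of differences mcm3 ranged from -0.83 to 0.097, with 0.055 without replicate 1 of wild-type myelomonocytes and 0.061 without replicate 2 of 142ab-/- WKMs, cdc6 from -0.56 to 0.11 and stmn1a from -0.23 to 0.0012. In WKMs between genotypes the members above 0 numbered 31 and 12 without replicate 1 or 2 of 142ab-/- WKMs, and of the members named there birc5a ranged from -0.62 to 0.0057, ncapd2 from -0.037 to 0.16 and top2a from -0.14 to 0.17. In 142ab-/- myelomonocytes the listed genes that fell ranged from 0 to 5 for replication, 0 to 13 for mitosis and 0 to 6 for monocytes and macrophages. Over the whole table the calls between genotypes in myelomonocytes ranged from 719 to 2073 around 1703, in WKMs from 361 to 1663 around 1278, and for the difference of differences from 1 to 94 around 38.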

Other observations

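Regulators outside the set went in several directions. The Kit receptor gene kita, of blood progenitors and mast cells, rose in 142ab-/- myelomonocytes, with 9.91 and 10.00 in 142ab-/- myelomonocytes, against 9.15 and 9.24 in wild-type myelomonocytes, a difference of 0.76 ± 0.10 (limma, adjusted p = 0.00300). The progenitor transcription factor gene myb rose by 0.51 ± 0.11 (limma, adjusted p = 0.0213). lmo2 and tal1 of the same marker list fell there, by 0.72 and 0.97 on the log2 scale. The call of myb was lost without replicate 2 of wild-type or either replicate of 142ab-/- myelomonocytes, and that of lmo2 without replicate 1 of wild-type or replicate 2 of 142ab-/- myelomonocytes. The cyclin-dependent kinase inhibitor gene cdkn1ba (p27) had 11.04 and 10.72 in 142ab-/- myelomonocytes, against 10.48 and 10.29 in wild-type myelomonocytes. Its difference of 0.50 ± 0.14 was not called (limma, adjusted p = 0.0552). The other cdkn genes tested had lower means in 142ab-/- than in wild-type myelomonocytes. These were 6.82 against 6.95 for cdkn1a and 10.24 against 10.27 for cdkn1bb. They were 6.02 against 6.58 for cdkn2c and 6.08 against 6.42 for cdkn3. Of the condensin genes outside the set, ncaph, the condensin I kleisin subunit, fell in 142ab-/- myelomonocytes with 8.67 and 8.51 in 142ab-/- myelomonocytes, against 9.44 and 9.29 in wild-type myelomonocytes, a difference of -0.78 ± 0.18 (limma, adjusted p = 0.0284). Its call was lost without any 1 of the 4 myelomonocyte arrays (adjusted p up to 0.135). It was chosen after its values were seen, as were the cdkn genes and the remarks on progenitor genes.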
